A study of Oryza sativa Japonica Group with 49 samples.

Results

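The heat response of flowering panicles was set against that of seedlings in the rice variety Zhonghua 11 (ZH11), an unmodified japonica cultivar, by the interaction of tissue and heat: the log2 fold change of heat over normal in panicles minus that in seedlings. The 10 ZH11 libraries of these 4 groups, out of 19 libraries in the count table and 49 samples in the series, were used: 2 of heat-treated panicles, 2 of panicles under normal conditions, 3 of heat-treated seedlings and 3 of seedlings under normal conditions. The sample labels give 1 heat treatment for all of them, 45 °C for 6 h, in words that speak of seedlings alone, and they give no normal temperature. The study's overview of its libraries lists a shorter heat for panicles, taken at flowering, than for seedlings with 4 leaves, a longer heat for seedlings than the labels do, and a warmer normal condition for panicles. By that overview organ, stage, length of heat and normal temperature changed together between the tissues, and their parts in any difference cannot be told apart. RNA was read from whole panicles or seedlings, so fewer cells of a type and less RNA per cell cannot be told apart either. The methods describe seedling libraries as made from several seedlings of each repeat of the treatments. Neither the methods nor the labels say what separates the panicle libraries of a group, so the panicle p-values measure only the spread between these libraries, which may in part be technical.

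Plant cells answer heat through heat shock factors (HSFs), transcription factors that bind heat shock elements in promoters and switch on genes for chaperones. The small heat shock proteins (sHSPs) hold unfolding proteins in solution, HSP70 and HSP90 with their co-chaperones refold or hold client proteins, and HSP101 pulls aggregates apart. In rice the flowering panicle is known as a heat-sensitive stage, since high temperature at flowering lowers pollen shedding and spikelet fertility.

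The libraries held 79074811 to 132110274 counts each. Low values in all 10 libraries were most often 4, so that a sequenced fragment was worth more than 1 count and the totals overstate the number of fragments. The label of tissue was borne out by the floral organ identity genes OsMADS2 and OsMADS4. OsMADS2 was at 190 and 156 normalised CPM, counts scaled to library size with edgeR's TMM factors, in heat-treated panicles and 174 and 178 in normal panicles, and at 0.305 to 0.460 in heat-treated and 1.60 to 1.94 in normal seedlings. The sHSP genes took 9.21% and 4.26% of all counts in heat-treated panicles, against 0.0360% and 0.0325% in normal panicles, and 1.85%, 10.6% and 6.09% in heat-treated seedlings, against 0.00295% to 0.00373% in normal seedlings. Heat-treated replicates of the same tissue thus differed in the strength of the response: panicle replicate 2 and seedling replicate 1 stood at the low end, while no normal library overlapped a heat-treated one. Over all genes tested, heat-treated seedlings correlated with normal panicles (r = 0.785 to 0.794 over 6 library pairs on log2 CPM) about as closely as with normal seedlings (r = 0.766 to 0.778 over 9 pairs), whereas heat-treated and normal panicles stayed closer (r = 0.875 to 0.933 over 4 pairs). These correlations describe genes within libraries and carry no test.

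Of 29005 genes tested out of 55986 in the table, the heat response differed between the tissues in 12224, which is 42.1% of those tested (edgeR's quasi-likelihood test of the interaction, Benjamini-Hochberg adjusted p under 0.05 and an absolute log2 difference over 1). The response was higher in panicles for 5451 genes and lower in panicles for 6773. Panicles alone changed less: 2733 genes (9.42%) passed in panicles, 2010 up (6.93%) and 723 down (2.49%), against 15171 (52.3%) in seedlings, 8823 up (30.4%) and 6348 down (21.9%). The median absolute log2 fold change was 0.50 in panicles and 1.43 in seedlings, with median standard errors of 0.35 and 0.29. Panicles had 2 libraries a group and seedlings 3, and how far that sets the gap in counts of calls was not tested.

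The panicle counts rested on single libraries. Without panicle normal replicate 2, 628 genes were up and 163 down. Without panicle heat replicate 1, 727 were up and 163 down, and without panicle normal replicate 1, 920 and 233. Without panicle heat replicate 2, 1383 genes were down, and without seedling heat replicate 1, 1094 were down. The seedling counts moved little, with 8296 to 8703 genes up and 6094 to 6584 down as each library in turn was left out. With no scaling beyond the library total, 1719 genes were up and 2453 down in panicles and the interaction gave 4183 higher and 8046 lower in panicles. Under that setting the median of all genes moved by -0.40 in panicles, -0.06 in seedlings and -0.33 in the interaction on the log2 scale.

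Fold changes of the 2 tissues were nearly unrelated across genes. Pearson's r between the panicle and the seedling log2 fold change was 0.16 and Spearman's rho 0.097 over 29005 genes, which are not independent of each other, and 52.4% of genes had the same sign in both tissues. The genes that were up in panicles were nonetheless often up in seedlings too: 52.3% of the 2010 panicle-up genes were also up in seedlings, while 13.9% were down there. Of the 723 panicle-down genes, 39.3% were also down in seedlings and 21% were up. Seen from the seedlings, the shared genes were a small part, 11.9% of the 8823 seedling-up and 4.47% of the 6348 seedling-down genes.

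**Figure D1:**
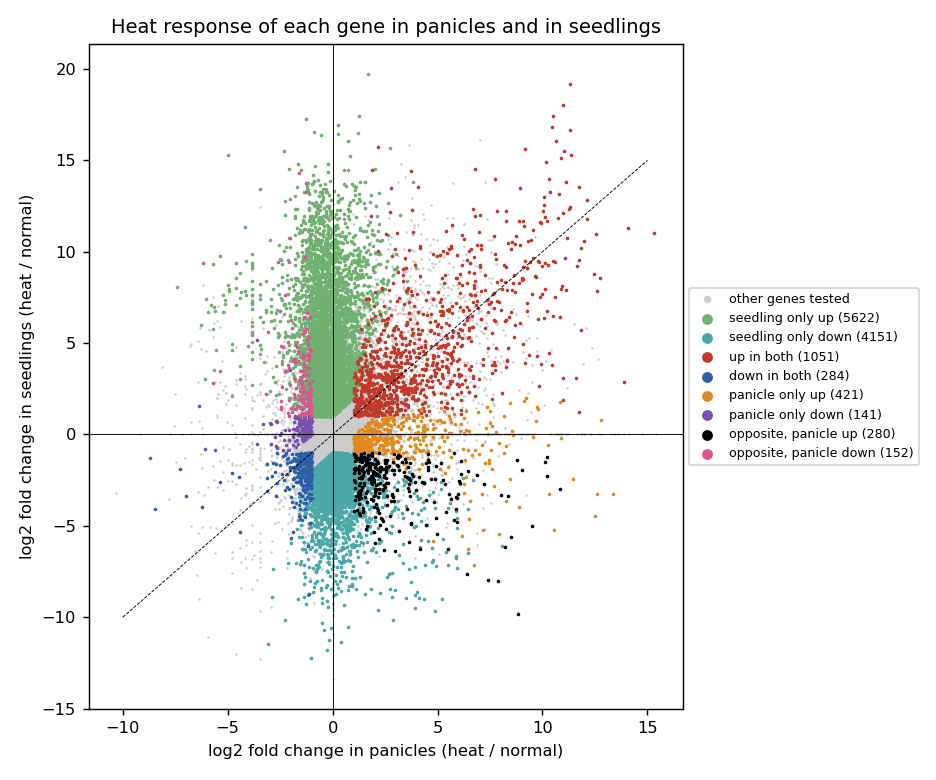
Log2 fold change of heat over normal in panicles (horizontal axis) against that in seedlings (vertical axis), 1 point per gene tested, coloured by class of response; the dashed line marks equal fold changes. The cloud is stretched along the vertical axis, and a separate arm of genes up in both tissues runs to the upper right.

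Genes were then sorted by which tissue had passed and whether the interaction had passed as well. A total of 1051 genes (3.62% of those tested) were up in both tissues and 284 (0.979%) down in both. Calls in panicles only, with the interaction called, came to 421 genes up (1.45%) and 141 down (0.486%). Seedlings only gave 5622 up (19.4%) and 4151 down (14.3%). Some of these genes were barely detected in the other tissue. Below 1 CPM in all seedling libraries were 105 (24.9%) of the 421 and 11 (7.8%) of the 141. Below 1 CPM in all panicle libraries were 916 (16.3%) of the 5622 and 583 (14%) of the 4151. Among genes called in neither tissue the shares were 30.9% in seedlings and 26.6% in panicles. In opposite directions were 280 genes that were up in panicles and down in seedlings (0.965%) and 152 that were down in panicles and up in seedlings (0.524%). For a further 4035 genes called in 1 tissue the interaction did not pass, so these cannot be given to 1 tissue: 258 up (0.89%) and 146 down (0.503%) in panicles, 1998 up (6.89%) and 1633 down (5.63%) in seedlings. The remaining 12868 (44.4%) passed in neither tissue.

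Each of the 6 classes that rest on a panicle call shrank when panicle heat replicate 1 or either normal panicle library was left out, and each grew without panicle heat replicate 2. Without panicle normal replicate 2, 376 genes were up in both, 137 up in panicles only, 41 down in panicles only, 79 opposite with panicles up and 16 opposite with panicles down. Without panicle heat replicate 1, 72 genes were down in both. The highest counts came without seedling heat replicate 1 (1369 up in both, 518 up in panicles only, 409 opposite with panicles up and 293 opposite with panicles down) and without panicle heat replicate 2 (499 down in both and 346 down in panicles only). The 2 seedling-only classes stayed at 4581 to 5629 and 3520 to 4342 genes.

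**Figure D2:**
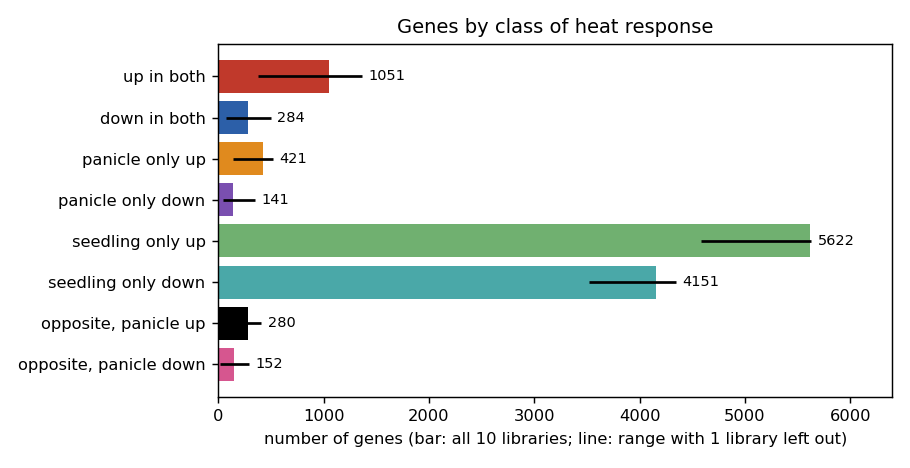
Number of genes in each class of heat response (bars, all 10 libraries), with lines for the lowest and highest count when 1 library was left out. Seedling-only classes hold 5622 and 4151 genes, and the lines of the 6 classes that need a panicle call are long relative to their bars.

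Most listed sHSP genes were up in both tissues. All 20 sHSP genes listed were up in seedlings and 15 of the 20 in panicles, with none down in either tissue, and the median log2 fold change was 8.54 in panicles and 11.38 in seedlings, beside -0.05 and 0.14 over all genes. The panicle count stayed at 15 under settings other than leaving out a library, but was lower in some fits with 1 library left out. No listed sHSP gene was called down in any of the other fits run, and none of the 20 had an unadjusted p under 0.05 in that direction. The gene lists used here are parts of families, taken from the study's annotation tables of genes that changed in other libraries of the series. Their counts thus do not stand for whole families and are to be read beside the shares of all genes. Those shares were 6.93% up and 2.49% down in panicles, 30.4% and 21.9% in seedlings, and 18.8% higher and 23.4% lower in the interaction. HSP101 (LOC_Os05g44340), the ClpB-type disaggregase needed for acquired thermotolerance in Arabidopsis and maize, was at 10894 and 4658 normalised CPM in heat-treated panicles against 7.24 and 7.28 in normal panicles, and at 2387, 18549 and 13720.0 in heat-treated seedlings against 1.39, 1.48 and 1.37 in normal seedlings. No heat-treated library overlapped a normal one in either tissue. Its log2 fold change was 10.06 ± 1.12 (SE) in panicles (edgeR adjusted p = 0.00141) and 13.00 ± 1.01 in seedlings (adjusted p = 5.6e-06).

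For HSP101 and the sHSP genes Oshsp26 and OsHSP17.0 the heat-treated libraries of the tissues overlapped, while the normal libraries did not. For the chloroplast sHSP Oshsp26 (LOC_Os03g14180), heat-treated panicles had 10463 and 3927 normalised CPM and normal panicles 4.03 and 4.89, whereas heat-treated seedlings had 1353, 17530.0 and 6593 and normal seedlings 0.0401, 0.303 and 0.0438. The heat-treated libraries of the tissues overlapped, while both normal panicle libraries lay above all normal seedling libraries. Its fold change was accordingly smaller in panicles, by 5.43 ± 1.54 on the log2 scale (edgeR adjusted p = 0.0169; 0.0755 without panicle heat replicate 2). The cytosolic class I sHSP OsHSP17.0 (LOC_Os01g04380) had the same pattern, with 7513 and 2694 in heat-treated against 49.6 and 41.8 in normal panicles, and 690.3, 7444 and 4032 in heat-treated against 0.952, 0.897 and 1.19 in normal seedlings, an interaction of -5.16 ± 1.18 (adjusted p = 0.00593). The panicle call of OsHSP17.0 was lost without either normal panicle library and that of Oshsp26 without panicle normal replicate 2.

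Across the sHSP list the fold change was lower in panicles for 11 of 20 genes and higher for none (none at an unadjusted p under 0.05 by edgeR, nor in any other fit), with a median interaction of -3.88, beside 23.4% of all genes tested called lower in panicles. The count was 17 of 20 without seedling heat replicate 1, the library with the weakest sHSP response. It was 9 to 13 under settings other than leaving out a library, and below 11 in some fits with 1 library left out. For OsHSP16.9C (LOC_Os01g04360), OsHsp18.0-CI (LOC_Os03g16030) and HSP101 the interaction was called in all 10 libraries (-3.68, -2.50 and -2.93) but lost in 10, 8 and 10 of the 20 other fits, with adjusted p up to 0.144, 0.150 and 0.141. OsHSP18.2 (LOC_Os01g08860) had an interaction of -3.00 ± 0.78 (edgeR adjusted p = 0.0109). For 3 of the most abundant members the difference did not pass: Oshsp16.9 (LOC_Os01g04370), OsHSP17.7 (LOC_Os03g16040) and the hsp20 gene LOC_Os03g15960 had interactions of -1.46 ± 1.22, -1.96 ± 0.94 and -1.65 ± 0.94 (edgeR adjusted p = 0.353, 0.115 and 0.176). The class I sHSP genes of chromosomes 1 and 3 are close copies of each other, and how the counting divided their reads is not given in the sources used here, so the split between them is uncertain.

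A listed sHSP gene outside this pattern was OsCIA. OsCIA (LOC_Os10g07210), annotated as an hsp20/alpha crystallin family protein, had 27.4 and 3.72 normalised CPM in heat-treated and 16.0 and 8.43 in normal panicles, which overlap, while heat-treated seedlings had 139, 66.1 and 85.9 and normal seedlings 0.0702, 0.0969 and 0. The log2 fold change was 0.35 ± 0.81 in panicles (edgeR adjusted p = 0.836) and 10.84 ± 1.10 in seedlings (adjusted p = 2.63e-05), with an interaction of -10.50 ± 1.41 (adjusted p = 0.000315).

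Among the larger chaperones, 11 of 14 HSP70, HSP90 and HSP100 genes were up in panicles and 12 in seedlings, with 1 down in seedlings (2 without seedling normal replicate 1, none without replicate 3). The interaction was lower in panicles for 9 and higher for 1 (none without panicle heat replicate 1, either normal panicle library or seedling heat replicate 1), and the count of 9 became 5 without panicle heat replicate 2, while the 11 up in panicles became 7 without panicle normal replicate 2. The HSP90 gene hsp82A (LOC_Os08g39140) had 10676 and 4834 normalised CPM in heat-treated against 278 and 287 in normal panicles, and 5042, 19324 and 12492 in heat-treated against 69.4, 71.1 and 78.9 in normal seedlings. As with Oshsp26 and OsHSP17.0, normal panicles were above normal seedlings and the heat-treated libraries overlapped. The fold change was 4.78 ± 0.68 in panicles and 7.39 ± 0.62 in seedlings on the log2 scale, an interaction of -2.61 ± 0.76 (edgeR adjusted p = 0.0186; 0.0755 without panicle heat replicate 2, and lost under glmTreat, which tests against a log2 fold change of 1). The HSP70-type gene LOC_Os01g62290 differed by -4.50 ± 0.94 (adjusted p = 0.0037) and the heat shock protein gene LOC_Os04g01740 by -6.94 ± 1.54 (adjusted p = 0.00521).

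Co-chaperones went both ways. Of 15 J-domain and other co-chaperone genes, 7 were up in panicles and 10 in seedlings, the interaction being higher in panicles for 4 and lower for 7. The panicle count was 4 without panicle heat replicate 1 and 3 without panicle normal replicate 2, and the 7 lower in panicles became 4 without panicle heat replicate 2. The peptidyl-prolyl isomerase gene rFKBP65 (LOC_Os04g28420), whose product helps proteins fold around proline bonds, had 4093 and 2008 normalised CPM in heat-treated against 29.1 and 25.6 in normal panicles, and 1981, 11905 and 4138 in heat-treated against 0.0902, 0.363 and 0.324 in normal seedlings. It differed by -7.70 ± 1.18 (edgeR adjusted p = 0.000656). The J-domain gene LOC_Os06g09560, of the family that feeds clients to HSP70, went the other way: 71.2 and 33.0 in heat-treated against 0.608 and 0.890 in normal panicles, and 217, 218 and 114 in heat-treated against 20.3, 18.9 and 18.8 in normal seedlings, an interaction of 2.88 ± 0.53 (adjusted p = 0.00189).

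Of 7 listed chaperone genes of the endoplasmic reticulum, 2 were up and 1 down in panicles (6.93% and 2.49% of all genes were). In seedlings 3 were up and 1 down, near the shares of all genes (30.4% and 21.9%) for so short a list. The list median log2 fold change was -0.001 in panicles and 0.29 in seedlings, beside -0.05 and 0.14 over all genes. In panicles 1 was up without panicle heat replicate 1 or panicle normal replicate 1 and none without panicle normal replicate 2, and the 1 down was lost without any 1 of the panicle or the normal seedling libraries. OsBip1 (LOC_Os02g02410), the main luminal HSP70, rose in both tissues by 3.01 ± 0.71 in panicles and 3.76 ± 0.60 in seedlings on the log2 scale (edgeR adjusted p = 0.0267 and 0.000461), and its interaction of -0.75 ± 0.85 did not pass (adjusted p = 0.506). The panicle call was lost without panicle heat replicate 1 or either normal panicle library. The protein disulfide isomerase OsPDIL1-4 (LOC_Os02g01010) fell only under the seedling test, to 5.50 ± 1.14 normalised CPM in heat-treated against 19.7 ± 0.365 in normal seedlings (SD, n = 3 each). In panicles it was at 15.9 and 16.8 against 27.9 and 26.3, a log2 fold change of -0.73 that did not reach the fold limit, and the interaction was 1.11 ± 0.24 (edgeR adjusted p = 0.00473). That call was lost without seedling heat replicate 1, with no scaling beyond the library total and under glmTreat.

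Heat shock factors responded in both tissues. All 11 listed genes were up in seedlings and 8 in panicles, with none down, and unadjusted p was under 0.05 with a positive fold for 9 in panicles. The interaction was lower in panicles for 3 of 11 (6 without seedling heat replicate 1 and 1 without panicle heat replicate 2). OsHSFA2d (LOC_Os03g06630), of the A2 class that sustains the response to heat in Arabidopsis, had 1228 and 670.0 normalised CPM in heat-treated against 12.7 and 14.6 in normal panicles, and 294, 1669 and 1428 in heat-treated against 43.4, 38.4 and 36.4 in normal seedlings. It rose by 6.12 ± 0.80 and 4.84 ± 0.61 on the log2 scale in panicles and seedlings (edgeR adjusted p = 0.00268 and 0.000106), and the difference of 1.28 ± 0.83 did not pass (adjusted p = 0.233). Unlike HSP101, Oshsp26, OsHSP17.0 and hsp82A, OsHSFA2d and its relative OsHsfA2c (LOC_Os10g28340; 21.1 and 20.7 in normal panicles, 39.4, 38.6 and 39.5 in normal seedlings) were lower in normal panicles than in normal seedlings.

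OsHsfA2c rose by 5.60 ± 0.51 in panicles and 4.37 ± 0.39 in seedlings, with an interaction of 1.23 ± 0.54 (edgeR adjusted p = 0.0903). OsHsfB2b (LOC_Os08g43334), of the B class that lacks the activation domain of class A factors, rose by 3.84 ± 0.43 and 4.61 ± 0.37. The 2 HSF-domain genes with the greatest induction, LOC_Os06g36930 and LOC_Os03g53340, rose by 11.32 ± 1.26 and 10.01 ± 0.91 in panicles and by 12.44 ± 1.08 and 12.24 ± 0.81 in seedlings, and neither interaction passed (adjusted p = 0.456 and 0.0535). OsHsfA7 (LOC_Os01g39020) passed in seedlings only, with 1.98, 4.52 and 2.24 normalised CPM in heat-treated against 0.381, 0.594 and 0.298 in normal seedlings, and with 0.714 and 0.435 against 0.320 and 0.297 in panicles. Its interaction of -1.89 ± 0.70 was just outside the threshold (edgeR adjusted p = 0.0512), so a difference between the tissues was not resolved.

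**Figure D3:**
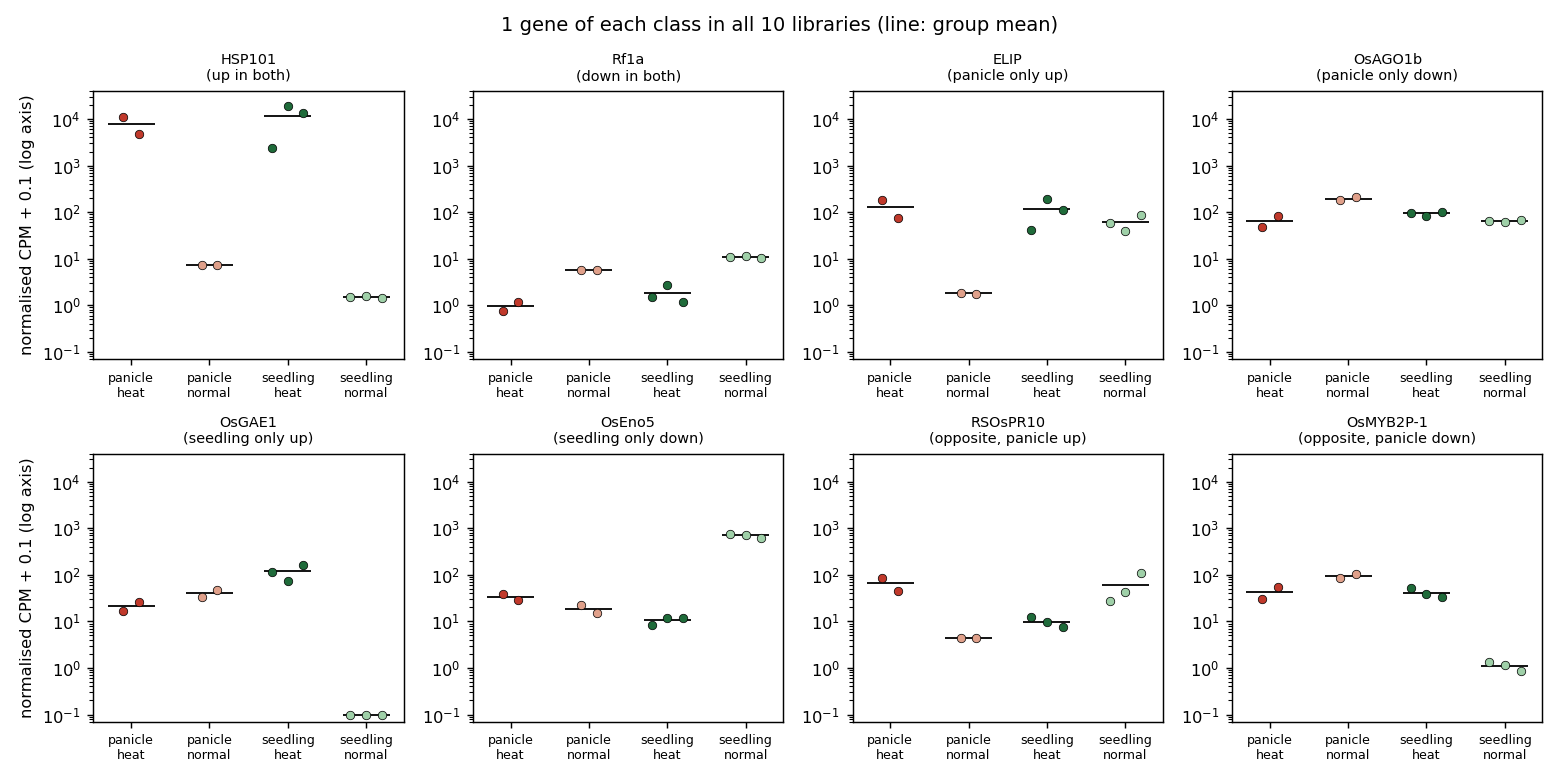
Normalised CPM plus 0.1 on a log axis in all 10 libraries for 1 gene of each class (points: libraries; line: group mean). HSP101 lies far higher under heat in both tissues, OsAGO1b falls in panicles alone, OsGAE1 is at 0 in all 3 normal seedling libraries, and RSOsPR10 is high in heat-treated panicles and in normal seedlings.

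Outside the chaperones, genes up in both tissues covered several groups tied to water loss and hormones. Late embryogenesis abundant (LEA) and dehydrin genes, which code for hydrophilic proteins that protect cells as they dry, were up in panicles for 13 of 21 and in seedlings for 14 of 21, with none down by the edgeR test at the thresholds or at an unadjusted p under 0.05. In panicles the count was 5 without panicle heat replicate 1, 5 without panicle normal replicate 1 and 4 without panicle normal replicate 2. OsDhn1 (LOC_Os02g44870) had 3039 and 1533 normalised CPM in heat-treated against 106 and 73.9 in normal panicles, and 492, 2988 and 1660.5 in heat-treated against 27.2, 35.8 and 34.7 in normal seedlings. It rose by 4.66 ± 0.78 and 5.72 ± 0.67 on the log2 scale, and its interaction did not pass (-1.05 ± 0.86, edgeR adjusted p = 0.346). The panicle call was lost without either normal panicle library. RAB21 (LOC_Os11g26790) had 376 and 207 against 3.21 and 2.89 in panicles, while in seedlings 1 library led, with 414, 16.4 and 37.9 against 0.241, 1.32 and 0.858. Its panicle call was lost in 5 of the 21 other fits.

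Calmodulin-related calcium sensors were up in panicles for 5 of 6 and in seedlings for 4 of 6. Without panicle normal replicate 1 the panicle count was 2, and without panicle heat replicate 1 or panicle normal replicate 2 it was 3. OsMSR2 (LOC_Os01g72530), a calmodulin-like gene, rose more in panicles, with 195 and 129.9 normalised CPM in heat-treated against 1.27 and 4.14 in normal panicles, and 47.9, 59.0 and 42.9 in heat-treated against 2.85, 17.8 and 11.6 in normal seedlings, an interaction of 3.69 ± 0.97 (edgeR adjusted p = 0.012). OsCML16 (LOC_Os01g04330) rose in both, by 4.51 ± 0.73 and 3.80 ± 0.58, the difference being 0.72 ± 0.82 (adjusted p = 0.51), and its panicle call was lost without panicle normal replicate 1.

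JAZ repressors, which hold jasmonate-responsive factors in check, were up in panicles for 4 of 5 and in seedlings for 5 of 5. The panicle count was 1 without panicle heat replicate 1, panicle normal replicate 1, panicle normal replicate 2 or seedling normal replicate 3, and 2 without panicle heat replicate 2 or seedling normal replicates 1 or 2. LOC_Os03g28940 rose by 1.52 ± 0.23 in panicles and 1.60 ± 0.19 in seedlings (edgeR adjusted p = 0.00461 and 6.39e-05), an almost equal change, with an interaction of -0.07 ± 0.29 (adjusted p = 0.885).

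RNA-recognition and splicing factor genes were up in panicles for 5 of 16 and in seedlings for 13 of 16. The pre-mRNA-splicing factor gene LOC_Os03g49430 had 641 and 255 normalised CPM in heat-treated against 0.496 and 0.395 in normal panicles, and 423, 819 and 840.3 in heat-treated against 3.25, 3.26 and 3.42 in normal seedlings. It rose by 9.97 ± 0.64 in panicles and 7.71 ± 0.47 in seedlings, more in panicles by 2.26 ± 0.59 (edgeR adjusted p = 0.0111; 0.0525 without panicle normal replicate 2). The RNA recognition motif genes LOC_Os02g40900 and LOC_Os03g15890 rose by 5.10 ± 0.55 and 2.87 ± 0.39 in panicles and by 4.86 ± 0.44 and 2.77 ± 0.32 in seedlings, with interactions of 0.24 and 0.10 (adjusted p = 0.79 and 0.917).

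Genes down in both tissues included 3 named for disease resistance or fertility. Rf1a (LOC_Os10g35436), a pentatricopeptide repeat gene that restores fertility in cytoplasmic male-sterile rice, was at 0.660 and 1.10 normalised CPM in heat-treated against 5.55 and 5.59 in normal panicles, and at 1.39, 2.59 and 1.09 in heat-treated against 10.5, 11.3 and 10.2 in normal seedlings. The log2 fold change was -2.66 ± 0.42 in panicles and -2.66 ± 0.34 in seedlings (edgeR adjusted p = 0.00555 and 0.000113), nearly the same in both. The other 2 loci carry the names xa21 (LOC_Os11g35500), a receptor kinase, and Pi9 (LOC_Os06g17900), a nucleotide-binding leucine-rich repeat protein, in the study's annotation. Both names stand for resistance to pathogens, and whether ZH11 holds working resistance genes at these loci was not tested. Their log2 fold changes were -2.26 ± 0.50 and -1.61 ± 0.37 in panicles and -3.03 ± 0.45 and -1.69 ± 0.31 in seedlings. The panicle call of Rf1a was lost without panicle heat replicate 1, that of xa21 in 6 of the 21 other fits, among them those without that library or either normal panicle library, and that of Pi9 in 4, among them those without either normal panicle library. Genes of such families have close relatives in the genome, so their reads may be shared.

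Of the 421 genes up in panicles only, 35 had a name. Among those with a mean of at least 5 CPM in a group and no overlap between heat and normal, the largest interactions were those of OsCIPK30, ELIP and OsPR10b. OsCIPK30 (LOC_Os01g55440), a protein kinase of the family that calcium sensors of the CBL type activate, had 11.3 and 2.15 normalised CPM in heat-treated against 0.00800 and 0.0247 in normal panicles, while no seedling library was above 0.0550. It rose by 8.59 ± 1.51 in panicles (edgeR adjusted p = 0.00855) and the interaction was 8.60 ± 2.37 (adjusted p = 0.0148), which did not pass without panicle heat replicate 1 or seedling normal replicate 2, nor with counts divided by 4. ELIP (LOC_Os01g14410), an early light-induced thylakoid protein that binds chlorophyll set free under stress, had 179.9 and 75.9 in heat-treated against 1.70 and 1.68 in normal panicles. Seedlings held it at 40.3, 195 and 112 under heat and 59.5, 39.5 and 87.9 under normal conditions, which overlap. Its panicle level under heat thus lay within the range of seedlings, and the interaction was 5.35 ± 0.92 (adjusted p = 0.00127). OsPR10b (LOC_Os12g36850) had 17.5 and 11.2 against 1.22 and 0.725 in panicles, and 3.27, 2.22 and 1.11 against 2.11, 3.88 and 10.9 in seedlings, an interaction of 5.24 ± 1.01 (adjusted p = 0.00239). The panicle calls of OsCIPK30 and OsPR10b were lost without panicle heat replicate 1 or either normal panicle library.

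Some stress signalling genes had the greater response in panicles. In the lists of NAC, AP2/ERF and WRKY factors described below, no more genes had a higher than a lower interaction in panicles. Of 13 protein phosphatase 2C (PP2C) genes, the family that includes the negative regulators of abscisic acid signalling, 6 were up in panicles and none down (unadjusted p under 0.05: 9 up, none down, by edgeR), while in seedlings 4 were up and 2 down. The 6 up in panicles became fewer in some fits with 1 library left out. The interaction was higher in panicles for 7 and lower for 1, beside 18.8% of all genes called higher. LOC_Os03g16170 had 212 and 151 normalised CPM in heat-treated against 5.25 and 5.28 in normal panicles, and 52.8, 51.7 and 32.9 in heat-treated against 22.8, 31.2 and 25.4 in normal seedlings, an interaction of 4.31 ± 0.35 (adjusted p = 2.2e-05). LOC_Os02g27220 was the 1 lower in panicles, at 43.3 and 50.9 against 48.8 and 52.1 there, and at 139, 75.7 and 99.9 against 14.6, 13.2 and 14.6 in seedlings (-2.99 ± 0.32, adjusted p = 8.9e-05).

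NAC factors, the family of ONAC023, were up in panicles for 6 of 31 and in seedlings for 20 of 31 (6.93% and 30.4% of all genes were). The interaction was higher in panicles for 8 and lower for 13, beside 18.8% and 23.4% of all genes. SNAC1 (LOC_Os03g60080), a drought-responsive NAC factor, rose in both, with 1415 and 827 normalised CPM in heat-treated against 16.9 and 24.1 in normal panicles, and 1397, 1416 and 1148 in heat-treated against 31.1, 50.3 and 60.8 in normal seedlings. Its heat levels were close in the tissues and the interaction did not pass (0.98 ± 0.47, edgeR adjusted p = 0.116). OsNAC5 (LOC_Os11g08210) and OsNAC6 (LOC_Os01g66120) rose in panicles alone. OsNAC5 had 139 and 87.9 in heat-treated against 5.90 and 3.04 in normal panicles, and 54.8, 133 and 92.9 against 50.0, 56.0 and 58.2 in seedlings, an interaction of 3.89 ± 0.56 (adjusted p = 0.000476). OsNAC6 had 83.3 and 63.2 against 19.2 and 17.1 in panicles, and 409, 237 and 212 against 308, 330.1 and 357 in seedlings (2.23 ± 0.39, adjusted p = 0.00144), and its panicle call was lost without panicle normal replicate 2.

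ONAC023 (LOC_Os02g12310), the NAC gene the series is about, was low throughout. It had 6.40 and 6.48 normalised CPM in heat-treated against 0.0400 and 0.0247 in normal panicles, and 1.30, 0 and 0.0550 in heat-treated against 0, 0 and 0 in normal seedlings. Both heated panicle libraries were above both normal ones, but the fold change of 7.58 ± 2.11 on the log2 scale did not pass in panicles (edgeR adjusted p = 0.0591). In seedlings the call (adjusted p = 0.0225) rested on 1 library with 1.30 and was lost without seedling normal replicate 3, and DESeq2 gave no adjusted p. The interaction was -1.01 ± 2.20 (edgeR adjusted p = 0.759), so the tissues were not told apart. With all 3 normal seedling libraries at 0, the size and sign of this interaction depend on the prior count.

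AP2/ERF factors, which include the dehydration-responsive DREB proteins, were up in panicles for 13 of 38 and in seedlings for 24 of 38. Of all genes tested, 6.93% were up in panicles and 30.4% in seedlings. The interaction was higher in panicles for 9 and lower for 9, near the shares of all genes, 18.8% and 23.4%. The panicle count was 8 without panicle heat replicate 1, 7 without panicle normal replicate 1 and 8 without panicle normal replicate 2. LOC_Os02g34270 had 585 and 268 normalised CPM in heat-treated against 0.184 and 0.239 in normal panicles, and 63.2, 505 and 396 in heat-treated seedlings while all 3 normal seedling libraries were at 0. Against a floor of 12 counts per library, 3 fragments where a fragment is worth 4 counts, its mean was at least 2600-fold higher in heat-treated than in normal seedlings. OsERF48 (LOC_Os08g31580) rose more in panicles (1.31 ± 0.30, edgeR adjusted p = 0.00569), a difference no longer called with no scaling beyond the library total. RSR1 (LOC_Os05g03040), a repressor of starch synthesis genes in rice seed, was at 32.7 and 18.4 against 33.6 and 28.0 in panicles, and fell in seedlings, to 82.9, 76.6 and 67.7 against 343, 346 and 335 (interaction 1.90 ± 0.32, adjusted p = 0.00114).

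Of 12 WRKY factors, 2 were up in panicles (6.93% of all genes were), against 6 up and 2 down in seedlings. The panicle count was 1 without any 1 of the 4 panicle libraries, seedling heat replicate 3 or seedling normal replicates 1 or 3, and the 2 down in seedlings became 4 without seedling heat replicate 1. OsWRKY62 (LOC_Os09g25070) had 97.9, 2.28 and 9.03 normalised CPM in heat-treated against 0.0601, 0.0969 and 0.0350 in normal seedlings, and 1.74 and 2.71 against 0.392 and 0.132 in panicles. Its interaction (-6.10 ± 2.09, edgeR adjusted p = 0.0376) was lost in 9 of the 20 other fits. OsWRKY30 (LOC_Os08g38990) fell in seedlings, to 3.18, 5.13 and 5.65 against 32.0, 32.1 and 29.0, and had 4.23 and 8.30 against 11.2 and 8.53 in panicles (interaction 2.09 ± 0.45, adjusted p = 0.00436).

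Of the 141 genes down in panicles only, 4 had a name, among them OsAGO1b, ARF8 and OSHB1. OsAGO1b (LOC_Os04g47870), an Argonaute that carries microRNAs, was at 46.8 and 82.0 normalised CPM in heat-treated against 184 and 207 in normal panicles, and at 97.7, 83.4 and 99.7 in heat-treated against 63.4, 61.0 and 67.2 in normal seedlings. It fell by 1.60 ± 0.24 in panicles on the log2 scale (edgeR adjusted p = 0.00476) with an interaction of -2.15 ± 0.31 (adjusted p = 0.000456). ARF8 (LOC_Os02g41800), an auxin response factor, was at 7.14 and 12.6 against 44.3 and 47.7 in panicles (interaction -1.64 ± 0.42, adjusted p = 0.0104), while seedlings had 5.46, 4.03 and 2.82 against 6.21, 6.51 and 5.69. OSHB1 (LOC_Os03g01890), a class III homeodomain-leucine zipper factor, was at 25.8 and 28.8 against 66.9 and 63.1 in panicles, and at 50.8, 39.4 and 48.7 against 51.6, 49.6 and 51.9 in seedlings (-1.11 ± 0.19, adjusted p = 0.00121). In all 3 genes the heated panicles lay below the normal panicles with no overlap, as the naming rule required (such a gap between heat and normal was found for 66.4% of all genes in panicles and 71.9% in seedlings).

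Of the 5622 genes up in seedlings only, 324 had a name. By the same limits the largest interactions were those of OsGAE1, OsBBPI and OsBURP16. OsGAE1 (LOC_Os01g10490) had 115, 73.1 and 165 normalised CPM in heat-treated seedlings and 0 in all 3 normal ones, at least 952-fold higher against the floor of 12 counts per library, while panicles had 16.9 and 26.4 under heat and 33.3 and 47.7 under normal conditions. OsBBPI (LOC_Os01g03360), a Bowman-Birk type protease inhibitor, had 3028, 18.7 and 71.8 in heat-treated seedlings and 0 in the 3 normal ones, and 30.2 and 10.8 against 7.35 and 5.31 in panicles. OsBURP16 (LOC_Os10g26940), a BURP-domain gene, had 118, 18.3 and 36.0 in heat-treated and 0 in normal seedlings, and no panicle library was above 0.165. OsBBPI and OsBURP16 varied widely among heat-treated seedling replicates, with replicate 1 highest. Their interactions were lost without panicle heat replicate 1 or 2 for OsBBPI (edgeR adjusted p up to 0.0772; DESeq2 gave it no adjusted p) and without panicle normal replicate 2 for OsBURP16.

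Across the 5622 genes of this class the median level was 6.68 normalised CPM in heat-treated panicles, 7.54 in normal panicles, 7.88 in heat-treated seedlings and 0.449 in normal seedlings. Normal seedlings stood apart, as the rule for the class favours. With genes filtered and called on the 6 seedling libraries alone, 81.7% of the 7922 genes up in seedlings had a higher mean in normal panicles than in normal seedlings. The share was 13.3% of the 6187 genes down in seedlings and 46.1% of the 11107 genes not called there. Of the 4287 seedling-up genes under 1 CPM in normal seedlings, 55.2% had at least 1 CPM in normal panicles, against 28.8% of the 1929 genes not called in seedlings and under 1 CPM there. The normal seedling level enters both the call and this comparison, so the shares are a description. The floral genes OsMADS2 and OsMADS4 did not follow: in heat-treated seedlings the highest library had 0.460 CPM of OsMADS2 and 0.200 CPM of OsMADS4.

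**Figure D4:**
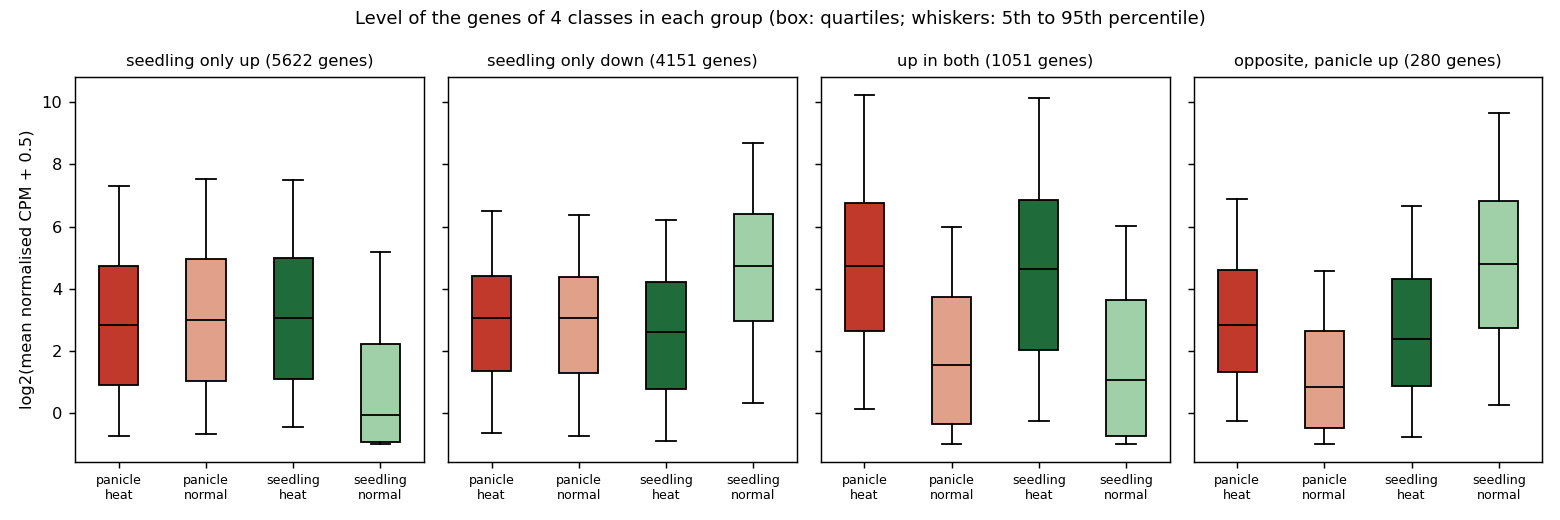
Log2 of the mean normalised CPM plus 0.5 in each group for the genes of 4 classes (box: quartiles with the median; whiskers: 5th to 95th percentile over genes). In the seedling-only classes, normal seedlings differ from the other groups (median 0.449 CPM against 6.68 to 7.88 for genes up), as the rule for these classes favours.

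Of 22 expansin and cellulose synthase genes, 20 were up in seedlings and none down (unadjusted p under 0.05: 20 up, none down, by edgeR; 1 was down without 1 library), with a median log2 fold change of 5.50. In panicles 2 were up and 1 down, with a median of -0.15, and the interaction was lower in panicles for 19 and higher for none. Without panicle heat replicate 1 or panicle normal replicate 2 no gene was called in panicles, without panicle normal replicate 1 none was up, and the 1 down became 2 without panicle heat replicate 2 and 3 without seedling heat replicate 1. Bc6 (LOC_Os09g25490), a cellulose synthase of the secondary wall, had 228, 312 and 319 normalised CPM in heat-treated against 7.41, 5.71 and 5.55 in normal seedlings, and 979.5 and 893 in heat-treated against 937 and 784 in normal panicles. OsCesA4 (LOC_Os01g54620), of the same secondary wall complex, had 151, 241 and 222 against 10.2, 12.4 and 8.74 in seedlings, and 861 and 874 against 1043 and 865 in panicles. The interactions were -5.40 ± 0.32 and -4.43 ± 0.35 (edgeR adjusted p = 6.99e-06 and 1.97e-05).

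OsCesA8 (LOC_Os07g10770) had 247, 276 and 222 normalised CPM in heat-treated against 51.3, 42.2 and 49.5 in normal seedlings, and 511 and 793 in heat-treated against 1131 and 1257 in normal panicles, a panicle log2 fold change of -0.87 that did not reach the fold limit. The cellulose synthase LOC_Os03g62090 moved in opposite directions, with 100.2 and 155 against 291 and 381 in panicles and 72.2, 97.2 and 84.0 against 13.8, 12.9 and 14.9 in seedlings. It fell by 1.39 ± 0.24 in panicles (edgeR adjusted p = 0.00814; lost without panicle heat replicate 1 or panicle normal replicate 2) and rose by 2.61 ± 0.21 in seedlings (adjusted p = 6.06e-06).

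Genes annotated as pollen Ole e I or lipid transfer proteins, families named for pollen allergens and for small secreted proteins that bind lipids, followed the cell wall genes. Of 56 tested, 46 were up and 2 down in seedlings (median log2 fold change 8.04), against 1 up and 3 down in panicles (median -0.73), and the interaction was lower in panicles for 44 and higher for 3. The 3 down in panicles became none without panicle heat replicate 1 or panicle normal replicate 2, 1 without panicle normal replicate 1 or seedling normal replicate 2, and 7 without seedling heat replicate 1. Without that last library 2 were up in panicles and 5 had a higher interaction. OsPRP1 (LOC_Os10g06000) had 232, 262 and 144 normalised CPM in heat-treated against 0.0301, 0.218 and 0 in normal seedlings, and 376 and 611 in heat-treated against 851 and 1162 in normal panicles. The interaction was -12.49 ± 1.18 (edgeR adjusted p = 4.6e-05). LOC_Os12g02320 was among the exceptions, at 31.3, 22.1 and 11.0 in heat-treated against 915, 888 and 955 in normal seedlings and at 15.6 and 14.1 against 17.5 and 8.95 in panicles.

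Core histone genes, whose transcription is tied to DNA replication, were up in seedlings for 7 of 8 listed genes and in panicles for 1 of 8. The 1 gene down in seedlings, OsHAP5C, carries the annotation of a core histone domain but is named as a subunit of the NF-Y transcription factor. LOC_Os10g28230 had 6.23, 13.2 and 14.5 normalised CPM in heat-treated against 0.281, 0.206 and 0.315 in normal seedlings, and 10.5 and 10.0 against 10.7 and 7.74 in panicles (interaction -5.23 ± 0.53, edgeR adjusted p = 6.66e-05). LOC_Os05g38560 was the 1 gene up in both, at 237 and 60.6 in heat-treated against 0.0400 and 0.0247 in normal panicles and at 28.5, 109.7 and 108 in heat-treated against 0.0100, 0.0121 and 0.00876 in normal seedlings. Histone genes are near-identical copies, and the counts of single members are uncertain. Summed over the 8 genes, heat-treated seedlings had 118, 185 and 199 normalised CPM and normal seedlings 219, 225 and 160, which overlap. That sum includes OsHAP5C, the 1 gene down in seedlings, so it does not show how the other listed genes changed in total. Whether the heat-treated and the normal seedling samples held the same organs was not tested.

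**Figure D5:**
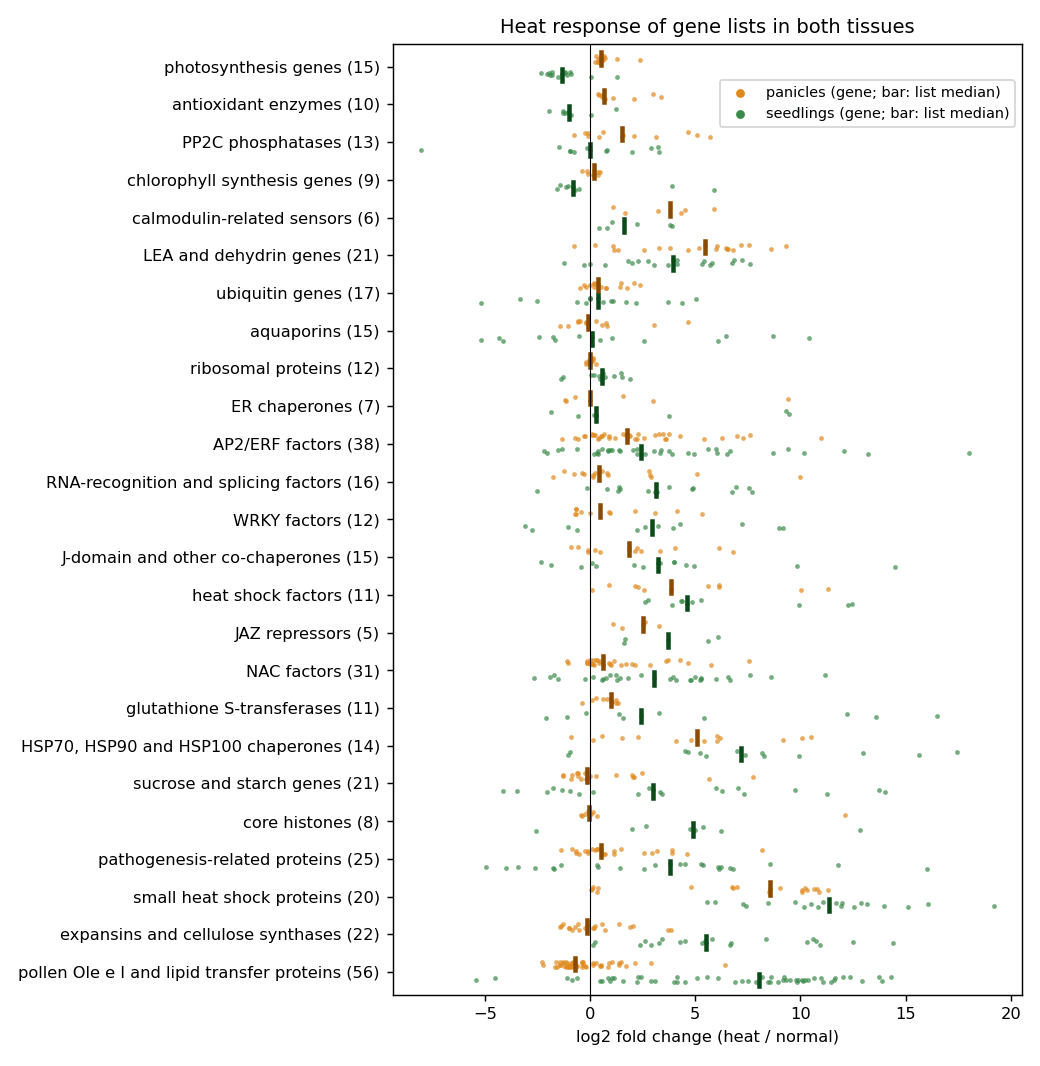
Log2 fold change of heat over normal for each tested member of 25 gene lists in panicles (upper row of each list) and in seedlings (lower row); bars mark list medians and lists are ordered by their median interaction. Chaperone lists lie to the right in both tissues, photosynthesis genes differ in sign (medians 0.51 and -1.34), and the expansin and pollen protein lists are shifted in seedlings alone (medians 5.50 and 8.04, against -0.15 and -0.73 in panicles).

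Photosynthesis genes had a higher response in panicles. In seedlings 10 of 15 were down and 1 up (none without seedling heat replicate 2 or seedling normal replicates 2 or 3; median log2 fold change -1.34), whereas in panicles 1 was up and none down (median 0.51; unadjusted p under 0.05: 4 up, none down, by edgeR), and the interaction was higher in panicles for 13 and lower for none. The 1 panicle call, OsRBCS2 (LOC_Os12g17600), was lost without panicle heat replicate 1, panicle normal replicate 2, seedling heat replicate 3 or any 1 of the normal seedling libraries, and without panicle normal replicate 1 the count was 2. CP29 (LOC_Os07g37240), a minor antenna protein of photosystem II, had 1772 and 1512 normalised CPM in heat-treated against 1275 and 894 in normal panicles, and 1302, 1289 and 1120.0 in heat-treated against 5548, 5030.5 and 3761 in normal seedlings. The interaction was 2.55 ± 0.38 (adjusted p = 0.000578). OsRBCS3 (LOC_Os12g19381), a Rubisco small subunit, had 1516 and 1119 against 747 and 334 in panicles and 2543, 1808 and 2575 against 4792, 4476 and 3682 in seedlings (2.19 ± 0.51, adjusted p = 0.0069). CAB2R (LOC_Os01g41710), a chlorophyll a/b-binding protein and the most abundant member, was not called in any contrast (interaction 0.18 ± 0.43, adjusted p = 0.773).

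Chlorophyll synthesis genes gave no panicle call of 9 (none at an unadjusted p under 0.05 by edgeR), against 2 up and 4 down in seedlings, and the interaction was higher in panicles for 4 and lower for 1 (2 without seedling heat replicate 3 or seedling normal replicate 3). The H subunit of magnesium chelatase, OsCHLH (LOC_Os03g20700), was at 299.5, 242 and 307 normalised CPM in heat-treated against 924, 888 and 698 in normal seedlings and at 305 and 415 against 359 and 276 in panicles (1.75 ± 0.32, adjusted p = 0.00176). The protochlorophyllide reductases parted: OsPORA (LOC_Os04g58200), the form known from dark-grown and greening tissue, rose in seedlings to 1566, 183 and 235 against 13.2, 11.9 and 8.47, with heat replicate 1 far above the others, and had 1474 and 1555 against 1296 and 1050.3 in panicles (interaction -5.51 ± 1.19, adjusted p = 0.00447). OsPORB (LOC_Os10g35370) had 219, 253 and 234 against 466, 417 and 342 in seedlings and 172 and 182 against 148 and 108 in panicles (1.26 ± 0.27, adjusted p = 0.00429; not called with no scaling beyond the library total).

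Of the 4151 genes down in seedlings only, 153 had a name, and by the same limits the largest interactions were those of OsPIANK1, OsSPX-MFS2 and OsEno5. The ankyrin repeat gene OsPIANK1 (LOC_Os11g07980) was at 0.872, 0.282 and 0.179 normalised CPM in heat-treated against 57.4, 53.6 and 60.5 in normal seedlings, and near 0 in all panicles. OsSPX-MFS2 (LOC_Os02g45520), a phosphate transporter with an SPX domain, was at 1.73, 1.91 and 0.797 against 199, 177 and 169 in seedlings, and at 5.61 and 2.93 against 2.94 and 1.94 in panicles (interaction 7.74 ± 0.59, edgeR adjusted p = 1.63e-05). OsEno5 (LOC_Os06g04510), named as an enolase, was at 8.30, 11.6 and 11.9 against 744, 722 and 630.4 in seedlings and at 39.3 and 28.6 against 22.7 and 14.8 in panicles (6.89 ± 0.38, adjusted p = 5.7e-06). The heated seedlings of all 3 genes lay far below the normal ones, as the choice by largest interaction favours. Heat and normal seedlings did not overlap, as the naming rule required (71.9% of all genes had such a gap in seedlings).

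Antioxidant enzymes divided by tissue. Of 10 genes, 3 were up and none down in panicles (unadjusted p under 0.05: 6 up, none down, by edgeR), while 3 were up and 5 down in seedlings, and the interaction was higher in panicles for 6 and lower for 2. Of all genes tested, 6.93% were up in panicles, 30.4% up and 21.9% down in seedlings, and 18.8% had a higher interaction. No panicle call was left without panicle heat replicate 1, panicle normal replicate 1 or panicle normal replicate 2, and the 6 became 3 without panicle heat replicate 1 or panicle normal replicate 1. The ascorbate peroxidase OsAPX4 (LOC_Os08g43560) was at 95.9, 118 and 121 normalised CPM in heat-treated against 442, 457 and 411 in normal seedlings and at 149 and 137 against 109 and 104 in panicles (2.40 ± 0.21, adjusted p = 3.3e-05). BAS1 (LOC_Os02g33450), a 2-Cys peroxiredoxin of the chloroplast, was at 286, 284 and 278 against 624, 635 and 519 in seedlings and at 343 and 278 against 223 and 188 in panicles (1.66 ± 0.24, adjusted p = 0.000499).

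In opposite directions, with panicles up, stood RSOsPR10, POX22.3 and cZOGT3. RSOsPR10 (LOC_Os12g36830), a root-specific pathogenesis-related protein of class 10, was at 86.4 and 45.2 normalised CPM in heat-treated against 4.37 and 4.35 in normal panicles, and at 12.3, 9.47 and 7.32 in heat-treated against 27.0, 43.2 and 109 in normal seedlings. It rose by 3.91 ± 0.65 in panicles and fell by 2.62 ± 0.50 in seedlings on the log2 scale (edgeR adjusted p = 0.0067 and 0.00131). The peroxidase POX22.3 (LOC_Os07g48020) was at 2.03 and 2.15 against 0.200 and 0.132 in panicles and at 1.15, 3.84 and 1.44 against 7.63, 9.86 and 24.3 in seedlings. The panicle calls of RSOsPR10 and POX22.3 were lost without either normal panicle library, and that of POX22.3 also without panicle heat replicate 1. cZOGT3 (LOC_Os04g47770), which stores cytokinin as a glucoside, was at 0.452 and 0.490 against 0.184 and 0.0330 in panicles and at 1.46 to 2.89 against 36.1 to 39.7 in seedlings, and its panicle call was lost in 11 of the 21 other fits. PR10 genes lie in a cluster of close copies on chromosome 12, and the share of reads between them is uncertain.

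The 280 genes of that class had a median level of 6.64 normalised CPM in heat-treated panicles, 1.29 in normal panicles, 4.76 in heat-treated seedlings and 27.0 in normal seedlings. The 2 heat-treated groups thus lay between the 2 normal ones, as the rule for the class favours. The aquaporin gene LOC_Os01g74450 was at 261 and 103 in heat-treated against 10.0 and 4.32 in normal panicles and at 65.2, 473 and 161 in heat-treated against 1206, 1281 and 1300.3 in normal seedlings (interaction 7.10 ± 1.16, edgeR adjusted p = 0.000933), the panicle call being lost without panicle heat replicate 1 or either normal panicle library. The neutral/alkaline invertase gene LOC_Os01g22900, whose product splits sucrose, was at 51.5 and 43.4 against 12.6 and 11.1 in panicles and at 155, 271 and 234 against 469, 609.9 and 571 in seedlings (3.32 ± 0.35, adjusted p = 7.85e-05).

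In the other direction, with panicles down and seedlings up, stood Os8N3, LSSR1 and OsMYB2P-1. Os8N3 (LOC_Os08g42350), the sucrose transporter OsSWEET11 that feeds the developing grain, was at 23.2 and 48.5 normalised CPM in heat-treated against 79.7 and 93.0 in normal panicles, and at 16.5, 16.1 and 17.6 in heat-treated seedlings while all 3 normal seedling libraries were at 0. It was at least 135-fold higher in heat-treated than in normal seedlings against the floor of 12 counts per library. LSSR1 (LOC_Os02g38260), annotated as a glycosyl hydrolase of family 5, was at 0.831 and 1.07 against 4.41 and 6.29 in panicles, and at 0.105, 0.193 and 0.0963 in heat-treated seedlings with normal seedlings at 0, levels too close to the floor for a fold. The MYB factor OsMYB2P-1 (LOC_Os05g04820) was at 30.8 and 53.7 against 84.5 and 103 in panicles and at 52.1, 38.6 and 33.0 against 1.27, 1.04 and 0.753 in seedlings. The panicle falls of these genes (-1.27 ± 0.32, -2.49 ± 0.47 and -1.15 ± 0.32) were lost in 12, 6 and 12 of the 21 other fits, among them those without panicle heat replicate 1 or either normal panicle library. Heat and normal libraries of all 3 genes did not overlap in either tissue, as the naming rule required. Such a gap was found for 66.4% of all genes in panicles and 71.9% in seedlings.

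Of 21 sucrose and starch genes, 4 were up and 2 down in panicles (6.93% and 2.49% of all genes were), against 13 up and 5 down in seedlings, and the 2 down in panicles became none without panicle heat replicate 1, either normal panicle library or seedling normal replicate 2, and 1 without seedling heat replicates 2 or 3 or seedling normal replicates 1 or 3. The sucrose synthase gene LOC_Os03g28330 was at 1391, 752 and 631 normalised CPM in heat-treated against 5.10, 5.38 and 6.86 in normal seedlings and at 2785 and 2736 against 2848 and 3426 in panicles (interaction -7.51 ± 0.54, edgeR adjusted p = 1.31e-05). The granule-bound starch synthase OsGBSSII (LOC_Os07g22930), the leaf form of the enzyme that makes amylose, was at 48.3, 37.2 and 63.8 against 865, 862 and 924 in seedlings and at 224 and 249 against 285 and 194 in panicles (4.13 ± 0.36, adjusted p = 3.27e-05). Heat and normal seedlings did not overlap for either gene, while neither was called in panicles. The alpha-amylase alphaAmy3 (LOC_Os08g36910) rose in seedlings to 4287, 75.4 and 501 against 0, 0.242 and 0.0701, with heat replicate 1 far above the others.

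Aquaporins, the water channels of membranes, were up in 2 and down in none of 15 in panicles (unadjusted p under 0.05: 3 up and 3 down by edgeR; at most 1 down in fits with other settings, 2 down without panicle heat replicate 2; 1 up without panicle heat replicate 1 or either normal panicle library), against 6 up and 6 down in seedlings. The interaction was higher in panicles for 6 and lower for 6. OsPIP2;7 (LOC_Os09g36930) fell in seedlings, to 54.0, 58.7 and 95.9 normalised CPM against 2660.5, 2575 and 2375, and stood at 51.9 and 48.8 against 58.4 and 49.6 in panicles (5.09 ± 0.39, adjusted p = 1.63e-05). OsPIP1;2 (LOC_Os04g47220) rose in seedlings to 1572, 2024 and 1375 against 295, 283 and 272, and was at 1689 and 1190.1 against 773 and 846 in panicles (-1.72 ± 0.33, adjusted p = 0.00247).

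Glutathione S-transferases, which join glutathione to toxic compounds, were up in 2 of 11 in panicles (none without panicle heat replicate 1 or either normal panicle library, 1 without seedling heat replicate 3 or any normal seedling library) and up in 8 and down in 2 (1 without seedling heat replicate 2) in seedlings. LOC_Os03g04240 was at 147, 74.5 and 119 normalised CPM in heat-treated seedlings with all normal seedlings at 0, at least 917-fold higher against the floor of 12 counts per library, and at 49.8 and 7.30 against 16.1 and 8.48 in panicles. LOC_Os10g38700 was called in opposite directions, at 16.0 and 8.98 against 6.56 and 5.68 in panicles and at 71.8, 49.4 and 66.6 against 136, 130.4 and 135 in seedlings, but its panicle call was lost in 11 of the 21 other fits.

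Pathogenesis-related proteins were up in 5 of 25 and down in none in panicles (unadjusted p under 0.05: 7 up and 2 down by edgeR; at most 2 down in the other fits), against 16 up and 6 down in seedlings. No gene was up in panicles without either 1 of the normal panicle libraries and 2 were without panicle heat replicate 1. The interaction was higher in panicles for 7 (4 without panicle normal replicate 2) and lower for 13. The thaumatin gene LOC_Os01g62260 was at 241, 406 and 439 normalised CPM in heat-treated against 0.110, 0.218 and 0 in normal seedlings and at 17.8 and 12.5 against 12.6 and 8.41 in panicles (-11.25 ± 1.02, edgeR adjusted p = 3.65e-05). OsPR10a (LOC_Os12g36880) went the other way, at 21.3, 15.8 and 11.8 against 82.5, 144 and 304 in seedlings and at 367 and 232 against 133 and 136 in panicles (4.59 ± 0.72, adjusted p = 0.000729).

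Ubiquitin genes were up in 3 of 17 in panicles (beside 6.93% of all genes; 1 without panicle heat replicate 1 and none without either normal panicle library) and up in 5 and down in 3 in seedlings. The polyubiquitin rubq2 (LOC_Os02g06640) was at 2727 and 1592 normalised CPM in heat-treated against 589 and 672 in normal panicles and at 7994, 9784 and 9611 in heat-treated against 410.2, 423 and 469 in normal seedlings, a rise in both that was smaller in panicles (-2.62 ± 0.41, edgeR adjusted p = 0.000727), its panicle call being lost without either normal panicle library. RUBI3 (LOC_Os04g53620) was at 1822 and 1047 against 264 and 290.1 in panicles and at 317, 849 and 681 against 280.0, 291 and 303 in seedlings, and its interaction of 1.29 ± 0.54 did not pass (adjusted p = 0.0761). Polyubiquitin genes share repeats, so reads may be divided between them. Of 12 ribosomal protein genes none was called in panicles (none at an unadjusted p under 0.05 by edgeR), while 4 were up and 2 down in seedlings and the interaction was lower in panicles for 4. The seedling counts of the ubiquitin and ribosomal lists were near the shares of all genes tested, 30.4% up and 21.9% down. Of all genes tested, 9.42% were called in panicles and 23.4% had a lower interaction in panicles.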

How the data were processed

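RNA was sequenced from ZH11 panicles and seedlings. The authors' alignment and transcript tools, as the submitters' processing notes name them, were HISAT2, StringTie and DESeq2, with no version given. The study's software list also holds STAR, an aligner, and which aligner made this table was not settled. The deposited table holds expected counts per gene of the MSU rice annotation, which are whole numbers, and was used without rounding. Which tool counted is not given in the sources used here. Counts of 10 of the 19 libraries (79074811 to 132110274 per library) were fitted in 1 model of 4 groups with edgeR 4.0.16 (R 4.3.3, TMM normalisation, filterByExpr, quasi-likelihood test); panicle, seedling and interaction contrasts were adjusted by Benjamini-Hochberg over 29005 genes. A gene was called at an adjusted p under 0.05 and an absolute log2 fold change over 1, and SE is the fold change over the root of F. A gene at 0 in all libraries of a group was given a floor of 12 counts per library, or 3 fragments of 4 counts, for the bound on its fold. Alternatives were DESeq2 1.42.0, other scalings and filters, glmTreat, a replicate block, other sets of libraries, counts divided by 4, and leaving out each library.

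Named genes were, per class, the 3 with a gene name and the largest interaction (for classes of both tissues, the largest smaller change) among those with a mean of at least 5 CPM in a group and no overlap between heat and normal; per list, members with the highest mean CPM; named sHSP and HSF genes; and ONAC023. Other members are named where a count turns on them, and were chosen after their values were seen. OsHAP5C is such a case. OsMADS2 and OsMADS4 were taken by a separate rule, as markers of panicle tissue. The comparison, the 25 lists (441 genes) and the genes were chosen with earlier results of these data known. Gene names and descriptions came from the study's annotation tables; of the genes tested, 918 had a name, and none of the identifiers matched the reference gene table at hand, so no coordinates or sequences are given. The fit was tested on simulated counts for 27113 genes, in which 110 of 150 interactions were recovered with 3 false calls. Only 200 genes were changed there, all detected in both normal tissues, by a fixed fold and equally often up and down. In the data 55.6% of genes were called in at least 1 tissue, so the false calls give no error rate for the data. Replicate pairs were compared on counts divided by 4: chi-square per degree of freedom was 4.10 for normal seedlings 1 and 2 and between 12.0 and 332 for the others, and no pair was counted as 1 library.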

Additional observations from a re-analysis of the deposited data

Results flagged for a closer look

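The heat response differed between the tissues, by the test of the interaction itself (edgeR quasi-likelihood, adjusted p under 0.05 and an absolute log2 difference over 1), for 79 of the 112 genes followed. These genes were mostly chosen by class, by size of the interaction or by level, so their share says nothing of other genes. Values are log2 differences, panicle minus seedling, and no explanation was tested.

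Higher in panicles were OsPIANK1 (11.71), OsCIPK30 (8.60), OsSPX-MFS2 (7.74), LOC_Os01g74450 (7.10), OsEno5 (6.89), RSOsPR10 (6.53), POX22.3 (6.35), cZOGT3 (6.15), LOC_Os12g02320 (5.58), ELIP (5.35), OsPR10b (5.24), OsPIP2;7 (5.09), OsPR10a (4.59). Next in size were LOC_Os03g16170 (4.31), OsGBSSII (4.13), OsNAC5 (3.89), OsMSR2 (3.69), LOC_Os09g25320 (3.51), OsRBCS2 (3.46), OsGRX20 (3.35), LOC_Os01g22900 (3.32), LOC_Os06g09560 (2.88), CP29 (2.55), OsAPX4 (2.40), LOC_Os03g49430 (2.26), OsNAC6 (2.23). Smaller differences in this direction were those of OsRBCS3 (2.19), OsMADS2 (2.16), LOC_Os10g38700 (2.12), OsWRKY30 (2.09), OsMADS4 (2.08), OsAPX2 (1.94), RSR1 (1.90), OsCHLH (1.75), BAS1 (1.66), OsCATA (1.62), OsERF48 (1.31), OsPORB (1.26), LOC_Os02g01010 (1.11). 

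Lower in panicles were OsBBPI (-18.02), OsBURP16 (-17.85), OsGAE1 (-17.48), LOC_Os03g04240 (-15.30), Os8N3 (-15.03), OsPRP1 (-12.49), LOC_Os01g62260 (-11.25), OsCIA (-10.50), LSSR1 (-9.25), rFKBP65 (-7.70), LOC_Os03g28330 (-7.51), LOC_Os04g39150 (-7.30), LOC_Os04g01740 (-6.94), OsMYB2P-1 (-6.48), OsWRKY62 (-6.10), OsPORA (-5.51). Then came Oshsp26 (-5.43), Bc6 (-5.40), LOC_Os10g28230 (-5.23), OsHSP17.0 (-5.16), LOC_Os01g62290 (-4.50), OsCesA4 (-4.43), LOC_Os03g62090 (-4.00), OsHSP16.9C (-3.68), qLTG3-1 (-3.51), OsCesA8 (-3.25), OsHSP18.2 (-3.00), LOC_Os02g27220 (-2.99), HSP101 (-2.93), rubq2 (-2.62), hsp82A (-2.61), OsHsp18.0-CI (-2.50). Smaller falls relative to seedlings were those of OsAGO1b (-2.15), OsPIP1;2 (-1.72), LOC_Os02g04650 (-1.65), ARF8 (-1.64), LOC_Os12g38000 (-1.60), OSHB1 (-1.11), OsPIP1;1 (-1.11), LOC_Os05g06770 (-1.10). For OsBBPI, OsBURP16, OsGAE1, Os8N3, LSSR1 and LOC_Os03g04240, normal seedlings were at 0 in all libraries, and for OsPIANK1 both normal panicle libraries were, so that the fitted difference depends on the prior count and is no bound.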

How the results depend on the processing

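The interaction, seedling and shared counts kept their direction in all settings, and no call of the 112 genes followed was reversed, while 32 of their 94 values that were not called changed sign in some setting. Under settings other than leaving out a library, 3437 of their 3561 values kept their side of the threshold, 81 lost their call and 43 gained one; with 1 library left out it was 3158, 168 and 34 of 3360. With DESeq2, 313 genes were opposite with panicles down. With no scaling beyond the library total, 2453 were down in panicles, 819 down in both, 524 down in panicles only and 550 opposite with panicles down. Among genes averaging at least 1 log2 CPM, 5811 were up in seedlings and 1935 were called in 1 tissue with the difference not resolved, as fewer genes were tested. With glmTreat against a log2 fold change of 1, 44 of the 242 calls of these genes were lost, and panicles had 847 up and 61 down; 474 were up in both, 21 down in both, 190 up and 20 down in panicles only, and 72 and 6 opposite with panicles up and down. Separate fits of each tissue gave 460 down in panicles, with no interaction or classes to be had; counts divided by 4 gave 240 opposite with panicles down. Apart from the settings that define fewer genes or a stricter test, the cause was not tested.

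With 1 library left out, the interaction ranged over 4549 to 5955 higher and 5738 to 7088 lower in panicles, panicle calls over 628 to 2723 up and 163 to 1383 down, and seedling calls over 8296 to 8703 up and 6094 to 6584 down. The classes ranged over 376 to 1369 up in both, 72 to 499 down in both, 137 to 518 and 41 to 346 up and down in panicles only, 4581 to 5629 and 3520 to 4342 up and down in seedlings only, 79 to 409 and 16 to 293 opposite with panicles up and down, and 3513 to 5619 not resolved. Where 1 panicle library was left in a group, it was assumed to vary like the other groups.

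The replicate numbers did not pair the libraries: the correlation of deviations of same-numbered heat and normal libraries was 0.089 in panicles and -0.025, -0.017 and 0.004 in seedlings. With the replicate block within each tissue, the interaction gave 5175 higher and 6360 lower in panicles, panicles 1658 up and 637 down, and seedlings 8369 up and 6296 down. Levels at or near 0 in normal seedlings limit fold changes to lower bounds.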
